A study of Gallus gallus with 18 samples.

Results

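The genes described here were those whose transcripts stood higher in every uterus library of the termination period than in any library of the 2 earlier periods of eggshell calcification. They were chosen by a score. Each gene's counts were divided by the library total and expressed as CPM, the usual abundance unit of sequencing counts. Of 17108 genes with an Ensembl identifier, 11721 had a median over 18 libraries below 1000 CPM and a mean in growth below 1.5 times that at initiation. The score was the log2 ratio of the lowest CPM of the 6 termination libraries to the highest CPM of the other 12, with 1 CPM added to both, and the 60 genes with the highest scores were taken. Because the score used termination against the other periods, those levels are a description with no test. Only differences between the eggshell strength groups, which the score treats alike, were tested. The demand that the lowest of 6 libraries be high does limit how far 1 strength group can lie below the other at termination. The score also divides by the highest of the other 12, which limits how far 1 group can rise above the other at initiation or in growth.

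The uterus, or shell gland, is the segment of the hen's oviduct in which the egg is mineralised. Its epithelium moves calcium and bicarbonate from the blood into the uterine fluid, where calcium carbonate crystals form on the shell membranes within a matrix of secreted proteins. The first crystals are laid down at initiation, the bulk of the shell is deposited in the growth period, and at termination mineral deposition stops and the cuticle is laid over the shell before the egg is expelled. The samples were uteri of Hy-Line Brown hens, a commercial brown-egg layer, aged 42 weeks, and all groups shared breed and age. Hens laying hard shells (high strength) and weak shells (low strength) were each sampled at initiation, growth and termination, with 3 libraries in each of the 6 groups. The labels give no altered gene and no agent. Whole uterus was sequenced, so more RNA from a gene per cell and more cells that express it cannot be told apart.

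The libraries held 13322102 to 16125109 counts. The files pair no gene names with the identifiers, and the RefSeq table used here lists no Ensembl identifiers. The genes are therefore called by identifier, nothing is said of what they encode, and the tissue label was not checked against marker genes. One feature of the libraries touches each result at termination. On the first principal component of the 16110 genes tested, the growth libraries scored 73.6 to 93.6 and the initiation libraries −87.1 to −15.4. High strength termination replicates 1 and 2 scored 73.0 and 89.5, beside growth, while replicate 3 scored −108 and the low strength termination libraries −48.4, −120 and −103. GC content of the reads was 49.2% to 50.6% in the 12 initiation and growth libraries and 49.3% to 53.1% at termination. High strength termination replicates 1 and 2 were at 49.3% and 50.01% GC. The part of GC content in the results was not tested.

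In summed CPM, the 60 genes made up a somewhat smaller share of uterine transcripts in growth than at initiation, and several times more at termination. Abundant members weigh most in this sum. Of the 60, 36 had a lower mean in growth than at initiation, beside 73.8% of the genes that met the limits. The summed level of all 60 was between 3715 and 3922 CPM in the 6 initiation libraries and between 2826 and 3606 CPM in the 6 growth libraries. These ranges did not overlap in CPM, but they did with the scaling for RNA composition described below. The rule also limits growth from above. At termination it was 13741, 10184 and 15438 CPM with high strength and 13358, 11427 and 12529.8 CPM with low strength. No termination library overlapped the other 12 in this sum. Relative to its own mean in the 12 earlier libraries, the median member stood 1.88, 1.38 and 1.83 log2 units higher in the 3 high strength termination libraries. In the 3 low strength ones it stood 1.64, 1.44 and 1.66 higher, on a log2(CPM + 1) scale, and the earlier libraries lay between −0.29 and 0.15. High strength replicates 1 and 2, which lay beside growth across all genes, were thus far from the growth libraries in these 60, as the rule required.

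**Figure D1:**
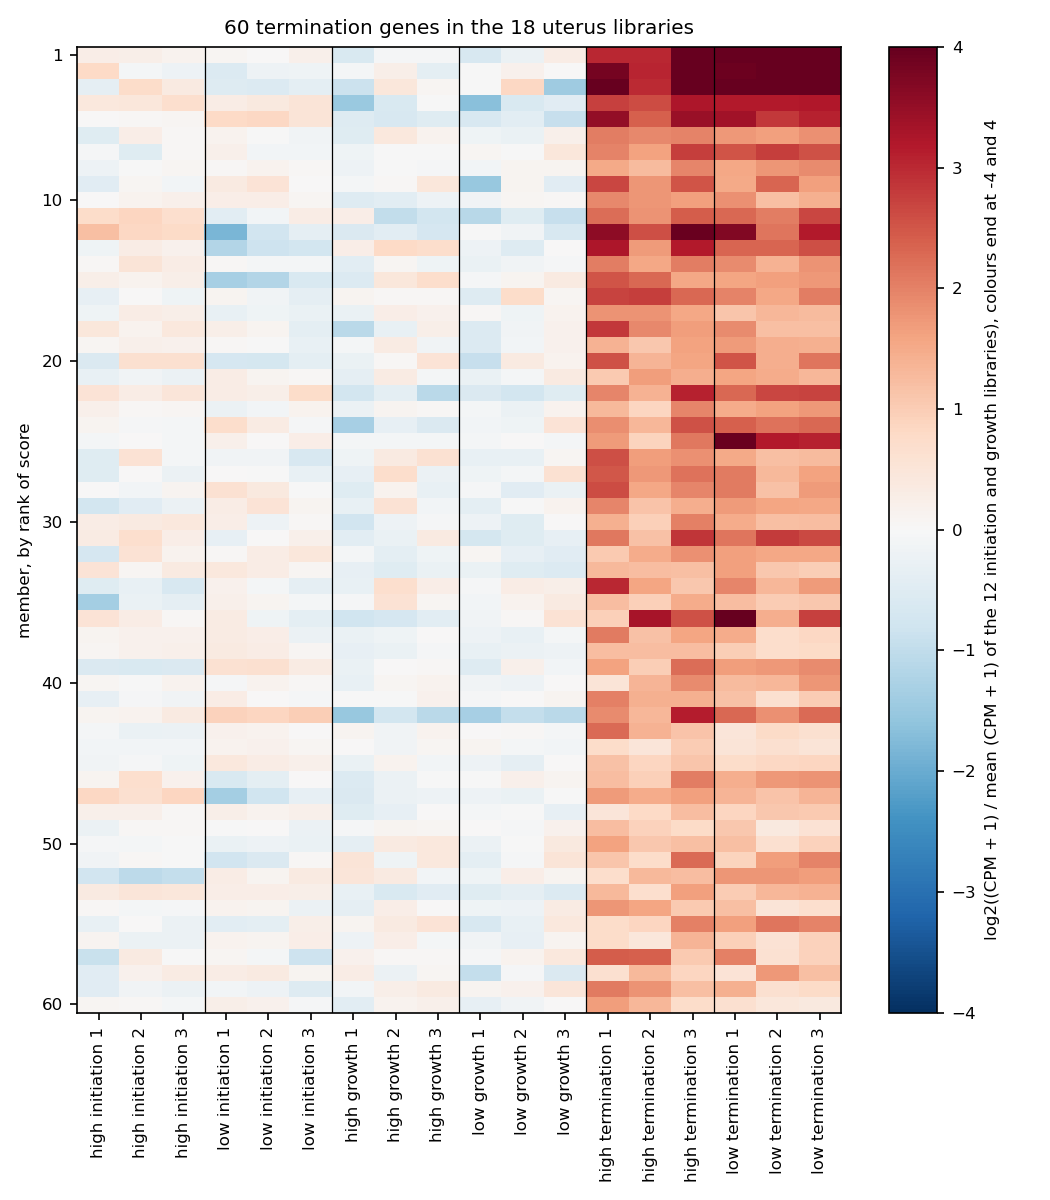
Rows are the 60 genes in order of score and columns the 18 libraries. Colour gives the log2 ratio of CPM + 1 to its mean over the 12 initiation and growth libraries, and stronger values share the end colours. All 60 rows are raised in all 6 termination columns, and rows differ in whether high or low strength is the darker.

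The size of the difference varied widely among the members. The mean termination level was a median of 3.57 times the mean of the other 12 libraries, at least 2 times in 54 of the 60 genes and at least 5 times in 16. The smallest ratio was 1.59. The largest, 114, belonged to ENSGALG00000013703 and rested on 10 counts in those 12 libraries. With high strength, 55 members were at least 2 times higher at termination than at initiation and 55 at least 2 times higher than in growth. With low strength these numbers were 49 and 49. The comparisons share the termination libraries. Of all 16110 genes tested, 14.5% and 7.83% reached 2 times over initiation and growth with high strength, and 5.97% and 13.6% with low strength.

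Full separation of termination from the other periods was rare among all genes. All 6 termination libraries lay above the other 12 in 0.794% of the 12727 Ensembl genes that passed the filter on low counts, and below them in 2.81%. With trimmed mean of M values (TMM) scaling, which corrects for differences in RNA composition, these shares were 1.6% above and 0.951% below, so their order flips with the scaling. All 60 members still lay above under TMM, and the median ratio became 4.59.

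ENSGALG00000023757 had the highest score and was also the most abundant member at termination. At initiation it measured 135, 131 and 124 CPM with high and 118, 114 and 128 CPM with low strength, and in growth 73.2, 109 and 108 CPM with high and 71.8, 95.2 and 139 CPM with low strength. At termination it measured 923, 917 and 2403 CPM with high and 2530.2, 2371 and 2307 CPM with low strength. The 12 earlier libraries lay between 71.8 and 139 CPM, and mean termination was 17.02 times their mean. Within termination, high strength replicates 1 and 2 lay well below high strength replicate 3, which lay among the 3 low strength libraries. The strength difference there, a log2 difference of −0.98 ± 0.37 (SE; adjusted p = 0.0808 by edgeR), did not pass. It passed in 4 of 25 alternative fits, among them without high strength termination replicate 3 (edgeR adjusted p = 7.45e-05) and with DESeq2 (0.0448). Of all genes, 57.3% and 24% were called at termination in the fits named, so a pass there says little about this gene.

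ENSGALG00000025772, ranked 2, was near silent before termination. ENSGALG00000012834, ranked 3, was low but detected, with a mean of 4.03 CPM in the 12 earlier libraries. ENSGALG00000025772 measured 1.88, 0.574 and 0.428 CPM with high and 0.136, 0.427 and 0.474 CPM with low strength at initiation, 0.581, 0.948 and 0.249 CPM with high and 0.620, 0.847 and 0.689 CPM with low strength in growth and 22.7, 12.5 and 38.3 CPM with high and 24.03, 58.6 and 34.1 CPM with low strength at termination, 48.5 times the earlier mean. Its lowest termination library, high strength replicate 2, was 6.69 times its highest earlier one, high strength initiation replicate 1. ENSGALG00000012834 measured 2.93, 7.46 and 5.43 CPM with high and 2.51, 2.42 and 2.84 CPM with low strength at initiation, 1.74, 5.91 and 4.36 CPM with high and 3.97, 7.95 and 0.877 CPM with low strength in growth and 183, 39.02 and 247 CPM with high and 92.9, 115 and 142 CPM with low strength at termination, 33.8 times the earlier mean. High strength replicate 2 was the lowest of the 6 termination libraries for both genes, and for ENSGALG00000012834 the high strength libraries spread to both sides of the low strength ones.

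In 2 other leading members growth was the low point. ENSGALG00000000947 measured 103, 103 and 122 CPM with high and 93.4, 99.1 and 108 CPM with low strength at initiation and 26.4, 49.7 and 74.9 CPM with high and 23.3, 49.6 and 55.2 CPM with low strength in growth. At termination it measured 507, 469.9 and 721 CPM with high and 695, 687 and 700.3 CPM with low strength. The low strength termination libraries were nearly equal to each other in CPM, but not with TMM scaling, at 768, 1014 and 927 CPM. All 6 growth libraries lay below all 6 initiation libraries. ENSGALG00000012593 measured 37.3, 37.9 and 39.3 CPM with high and 64.5, 66.4 and 52.8 CPM with low strength at initiation, 25.4, 23.5 and 26.02 CPM with high and 23.4, 27.6 and 19.2 CPM with low strength in growth and 435, 199 and 418 CPM with high and 384, 269.6 and 319 CPM with low strength at termination. Its growth libraries too lay below every initiation library. The rule limits growth only from above, so a low level in growth was free to vary. Mean growth was below mean initiation in 36 of the 60 members (33 with TMM scaling) and at most 0.5 times it in 6, these 2 genes among them. Of all genes that met the limits of the rule, 73.8% had a lower mean in growth, a share that the limit itself raises. A lower level in growth was thus not particular to the members. No share of all genes was computed for a growth mean at most 0.5 times initiation or for growth libraries wholly below initiation.

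A further member with a dip, ENSGALG00000016348, is named after its values were seen. It measured 219, 219.9 and 255 CPM with high and 384, 368 and 397 CPM with low strength at initiation, 68.9, 121 and 95.1 CPM with high and 79.6, 103 and 94.5 CPM with low strength in growth and 753, 500.4 and 1775 CPM with high and 997, 713 and 974 CPM with low strength at termination. Mean growth was 0.305 times mean initiation. All growth libraries lay below all initiation libraries, and all termination libraries above both, so the gene was lowest in the period of bulk deposition and highest at its end.

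ENSGALG00000023616, ranked 6, was the member with the least spread within termination in CPM, though not with TMM scaling. It measured 7.96, 14.3 and 12.1 CPM with high and 12.8, 11.5 and 10.4 CPM with low strength at initiation and 8.07, 15.8 and 12.9 CPM with high and 10.2, 9.51 and 13.4 CPM with low strength in growth. At termination it measured 50.5, 46.7 and 48.5 CPM with high and 40.4, 38.4 and 43.4 CPM with low strength. Its highest termination library was 1.31 times its lowest, against a median of 2.32 over the 60 members and a maximum of 16.4. All 3 high strength libraries lay above the 3 low strength ones in CPM, but they overlapped with TMM scaling, which gave a log2 difference of −0.03 ± 0.22 (SE; adjusted p = 0.933 by edgeR).

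**Figure D2:**
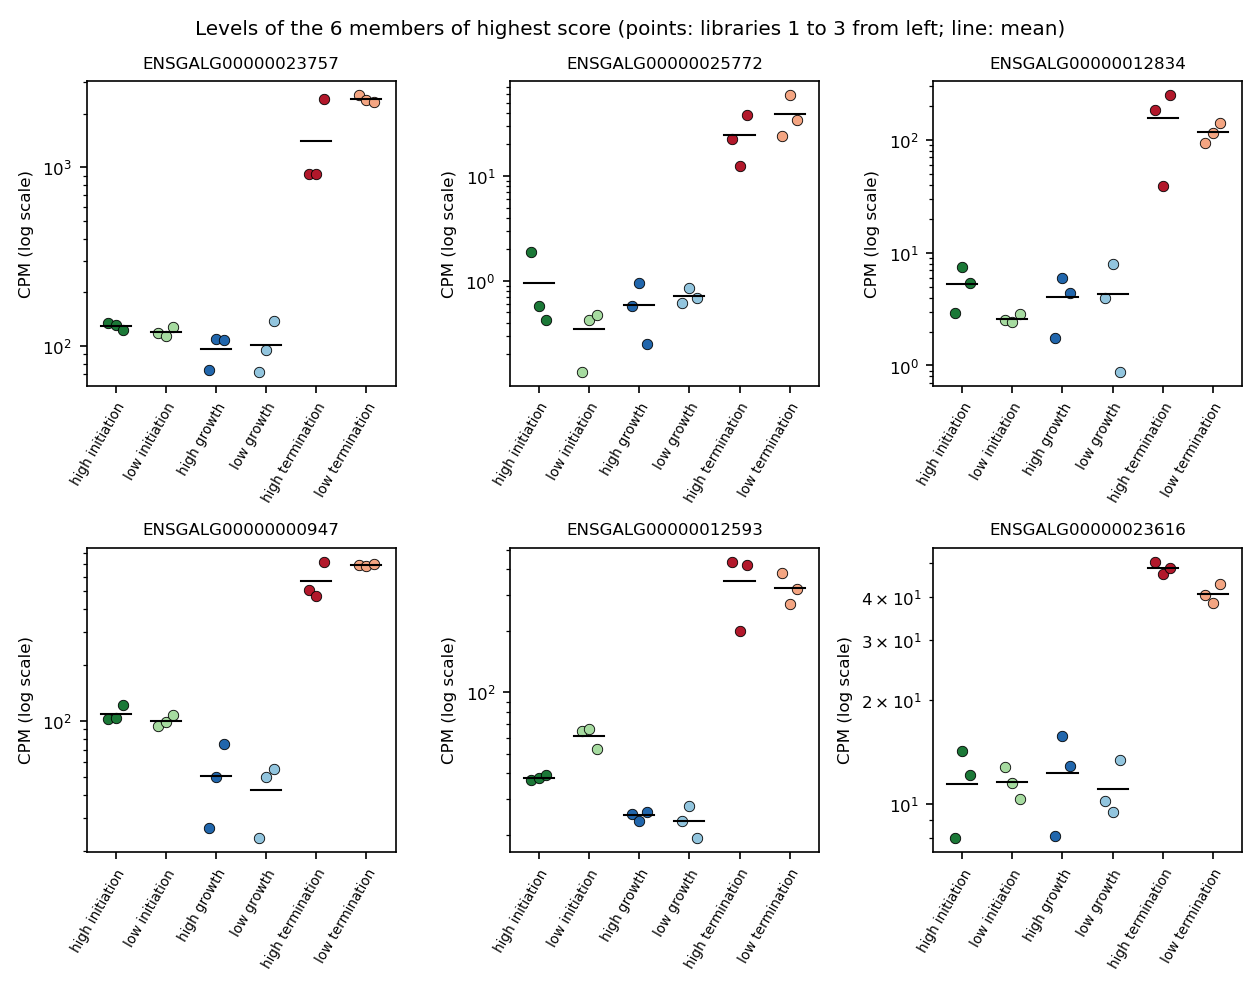
CPM on a log axis in the 6 groups for the 6 members of highest score, with a point for each library and a line at the mean of 3. In each panel the 6 termination points lie above the other 12, and the growth points of ENSGALG00000000947 and ENSGALG00000012593 lie below their initiation points.

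At the other end of the list the margin was thin. The gene ranked 60, ENSGALG00000008569, had its lowest termination library at 346 CPM and its highest earlier library at 309 CPM, a score of 0.163. Ranked 61 and left out, ENSGALG00000012911 scored 0.142, with 0.403 CPM against 0.271 CPM. In 11 members the lowest termination library was at least 2 times the highest earlier one, and in 29 at least 1.5 times. Of the 11721 genes that met the limits, 81 had a score above 0, so some genes outside the list also had no overlap. Members differed widely in abundance, within the rule's limit of a median below 1000 CPM. Mean termination levels were below 10 CPM in 6 members, 10 to 100 CPM in 26, 100 to 1000 CPM in 26 and above 1000 CPM in 2. The least abundant, ENSGALG00000026125, measured 0.749, 2.13 and 3.53 CPM with high and 1.97, 2.10 and 3.22 CPM with low strength at termination and no more than 0.374 CPM in the other 12 libraries. All 60 members passed the filter for testing (above 1 CPM in at least 3 libraries), 56 of them on the 12 earlier libraries alone.

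Among the 6 termination libraries the members did not vary as one. In CPM, high strength replicate 1 was the highest of the 6 for 27 members and replicate 3 for 21, and the lowest was high strength replicate 2 for 26 members and low strength replicate 2 for 18. Of all tested genes, 24.9% were highest in high strength replicate 1 and 18.7% in replicate 3, and 19.1% were lowest in high strength replicate 2 and 42.0% in low strength replicate 2. High strength replicates 1 and 2 lay together on the first principal component and had equal TMM factors of 1.002. Replicate 1 was nevertheless above replicate 2 in 51 of the 60 members, with a median log2 ratio of 0.37 (1 CPM added), while it was above in 49.6% of all tested genes. They are a single pair of libraries, and the members, unlike all genes, were chosen on values that include theirs. The ratio therefore describes this pair and no more. Replicate 3 was above both others in 27 members and below both in 13, against 37.1% and 51.7% of all tested genes. With TMM scaling, replicate 3 was above both in 40 members and below both in 7, counts for which the shares in CPM are no background. The TMM factors of replicate 3 and of the low strength libraries were 0.824, 0.905, 0.677 and 0.755, and factors below 1 raise the scaled levels of every gene. After TMM the lowest library was high strength replicate 2 in 37 members and low strength replicate 2 in 4. Shares of all genes with TMM scaling were not computed for these counts, so no trait of the members is read from them.

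**Figure D3:**
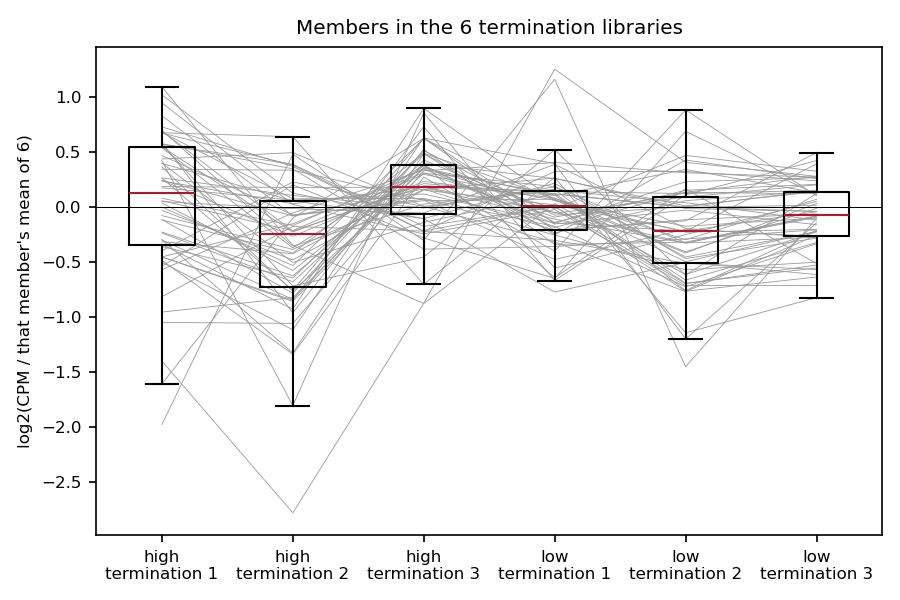
Each thin line is 1 member and gives the log2 ratio of its CPM in a termination library to its mean over the 6, with boxes at the quartiles, a red median and whiskers to 1.5 times the interquartile range. Medians of high termination 2 and low termination 2 lie lowest, and the lines cross between libraries.

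The series asked how hens laying hard and weak shells differ, and the strength groups were compared in these genes within each period. At initiation, edgeR's quasi-likelihood test called 5 of the 60 members at a Benjamini-Hochberg adjusted p below 0.05 over all genes, 3 with higher and 2 with lower levels at high strength. Of all 16110 genes, 7.97% were called, 3.04% higher and 4.93% lower, so the members' share is near the background. Libraries of the strength groups did not overlap in 23 of the 60 members, 13 above and 10 below, beside 34% of all tested genes (14.7% above and 19.3% below). The median absolute log2 difference was 0.31 in the members and 0.35 over all tested genes. The score divides by the highest earlier library and so limits such differences, and no more is read from these figures.

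ENSGALG00000014678 had the smallest p of the members at initiation, where it measured 121, 105 and 124 CPM with high and 25.6, 38.6 and 53.4 CPM with low strength. All 3 high strength libraries lay well above all 3 low strength ones, with a log2 difference of 1.61 ± 0.25 (SE; adjusted p = 0.000862 by edgeR). In growth it measured 45.2, 56.9 and 59.2 CPM with high and 58.4, 56.2 and 67.2 CPM with low strength, with overlap, and at termination 222, 192 and 213 CPM with high and 175, 150.2 and 177 CPM with low strength. The termination libraries lay apart in CPM, but with TMM scaling the log2 difference there was 0.05 ± 0.24 (SE). The strength difference of this gene changed with the period (edgeR F test of the interaction, adjusted p = 0.0128). It was the only member of 60 to pass that test, which called 5.85% of all genes. Without low strength initiation replicate 2 the interaction did not pass (edgeR adjusted p = 0.0552).

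ENSGALG00000006729 and ENSGALG00000026974 were also higher at high strength at initiation. ENSGALG00000006729, named after its value was seen as the last of the 3 calls in this direction, measured 77.5, 58.6 and 57.3 CPM with high and 8.55, 18.8 and 25.4 CPM with low strength, with a log2 difference of 1.91 ± 0.45 (SE; adjusted p = 0.0159 by edgeR). In growth it measured 21.7, 24.4 and 20.4 CPM with high and 32.2, 29.6 and 20.9 CPM with low strength, and at termination 407, 201 and 524 CPM with high and 446, 148 and 307 CPM with low strength, with overlap in both periods. The call at initiation was lost without high strength replicate 1, low strength replicate 1 or low strength replicate 2 of that period (edgeR adjusted p of 0.0578, 0.0781 and 0.0686). ENSGALG00000026974 measured 118, 110.3 and 119 CPM with high and 39.4, 44.1 and 65.4 CPM with low strength at initiation, with a log2 difference of 1.26 ± 0.30 (SE; adjusted p = 0.0153 by edgeR). It measured 68.2, 139 and 165 CPM with high and 97.6, 107 and 130.0 CPM with low strength in growth and 579, 494 and 297 CPM with high and 303, 317 and 336 CPM with low strength at termination. Both genes were apart between the groups at initiation and overlapped at termination. The call of ENSGALG00000026974 was lost without high strength initiation replicate 1 (adjusted p = 0.0508 by edgeR) and without low strength initiation replicate 1 or 2 (0.0999 and 0.0844).

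The 2 members with lower levels at high strength at initiation were ENSGALG00000006572 and ENSGALG00000009042. ENSGALG00000006572 measured 2.40, 1.79 and 1.9995 CPM with high and 6.04, 5.26 and 6.36 CPM with low strength, with a log2 difference of −1.44 ± 0.29 (SE; adjusted p = 0.00655 by edgeR). Its groups lay apart with little spread. ENSGALG00000009042 measured 4.35, 4.30 and 4.36 CPM with high and 11.4, 11.5 and 8.998 CPM with low strength, with a log2 difference of −1.21 ± 0.33 (SE; adjusted p = 0.0323 by edgeR), and at termination 23.8, 14.9 and 36.7 CPM with high and 24.4, 25.8 and 28.6 CPM with low strength, where the groups overlapped. Its call was lost without any 1 of the 6 initiation libraries or without low strength termination replicate 3, at edgeR adjusted p between 0.0508 and 0.110. Leaving out high strength replicate 1, low strength replicate 1 or low strength replicate 2 of that period left 815, 552 and 663 of all 16110 genes called. The number of members called at initiation was 2 in each of these fits. It was 8 without high strength termination replicate 3, beside 15.5% of all genes. The share of bases at quality 30 or above was 91.6% ± 0.0503 in the high strength and 94.7% ± 0.445 in the low strength initiation libraries (SD, n = 3 each). An exact permutation test, two-sided, gave p = 0.1, the least possible for 3 against 3, and the part of read quality in the calls was not tested.

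During growth no member was called. edgeR, DESeq2 and limma-voom with library weights each called 0 of the 60, beside 0.00621%, 0.0683% and 0.031% of all genes, and 3 members had an unadjusted edgeR p below 0.05, beside 2.32% of all genes. ENSGALG00000010721 measured 48.97, 51.98 and 61.2 CPM with high and 63.9, 73.1 and 71.6 CPM with low strength, and ENSGALG00000027874 measured 3.42, 7.87 and 6.54 CPM with high and 9.43, 8.92 and 15.3 CPM with low strength. Every low strength library lay above every high strength one in both. For ENSGALG00000010721 the test gave a log2 difference of −0.40 ± 0.12 (SE; adjusted p = 1.0 by edgeR), and for ENSGALG00000027874 a log2 difference of −0.96 ± 0.35 (SE; adjusted p = 1.0 by edgeR). With differences of the other sign, ENSGALG00000019276 measured 22.96, 33.9 and 31.4 CPM with high and 16.3, 13.1 and 19.3 CPM with low strength and ENSGALG00000008681 26.6, 38.8 and 46.5 CPM with high and 24.5, 24.03 and 31.6 CPM with low strength. Groups did not overlap in 5 of the 60 members, beside 8.02% of all tested genes. The limit through the highest earlier library applies in growth as well, so no more is read from these shares.

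**Figure D4:**
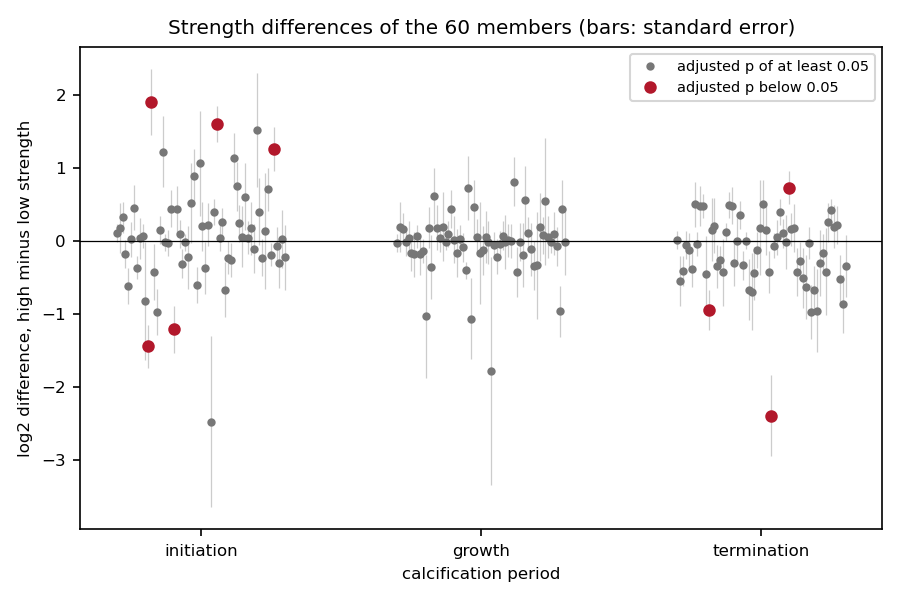
Log2 difference, high minus low strength, of each of the 60 members in the 3 periods, with standard errors as bars and members of adjusted p below 0.05 in red. The 5 red points at initiation lie on both sides of 0, growth has none, and termination has 1 above and 2 below.

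At termination, where these genes peaked, edgeR's quasi-likelihood test called 1 member with higher and 2 with lower levels at high strength. These are 3 of 60, beside 14.2% of all genes (12.2% higher and 1.92% lower). The median absolute log2 difference was 0.35 in the members and 0.55 over all tested genes. The rule itself limits such differences, so no more is read from these figures. High strength libraries lay entirely above the low in 9 members and entirely below in 2, 11 of 60 beside 11.4% of all tested genes (7.76% above and 3.64% below). With TMM scaling these were 4 and 3 members, beside 12.3% (5.7% above and 6.62% below). In CPM the mean at high strength was between 0.5 and 2 times that at low strength in 58 of the 60 members. With TMM scaling it was at least 2 times in 0 members and at most 0.5 times in 1. The rule limits these ratios too, and no share of all genes was computed for them, so no likeness of the strength groups is read from them.

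The 2 exceptions in CPM were both called, though ENSGALG00000016997 was not an exception with TMM scaling. ENSGALG00000013703 was all but absent before termination, with 10 counts in the 12 earlier libraries together, and passed the filter only through the termination libraries where it is high. At termination it had 36, 15 and 54 counts in the high strength libraries and 227, 127 and 117 in the low strength ones, which is 2.45, 0.941 and 3.53 CPM with high and 15.5, 8.59 and 7.86 CPM with low strength. Every low strength library lay above every high strength one, with a log2 difference of −2.40 ± 0.56 (SE; adjusted p = 0.0271 by edgeR). Its call was lost without high strength replicate 1 or 2 or low strength replicate 2 or 3 of that period, at edgeR adjusted p between 0.0964 and 0.127, and in a fit to the 6 termination libraries alone (0.360). ENSGALG00000016997 went the other way, with 518, 279 and 237 CPM with high and 149, 180.1 and 167 CPM with low strength at termination. All high strength libraries lay above the low ones, replicate 1 by the most, with a log2 difference of 0.73 ± 0.23 (SE; adjusted p = 0.0446 by edgeR). At initiation it had measured 101, 88.04 and 90.1 CPM with high and 119, 116 and 108 CPM with low strength, and in growth 115, 96.8 and 118 CPM with high and 108, 111 and 101 CPM with low strength. Its call was lost without each of 15 libraries, at edgeR adjusted p between 0.0504 and 0.270, and with upper-quartile scaling (0.0576). In CPM it also lay apart at initiation, in the other direction, with every high strength library below every low strength one. With TMM scaling the groups overlapped there, at 98.2, 77.9 and 80.9 CPM with high and 97.2, 97.2 and 106 CPM with low strength. The member of next smallest p among those with a higher mean at high strength, ENSGALG00000005800, measured 387, 316 and 209 CPM with high and 244, 143 and 156 CPM with low strength at termination, with overlap, and a log2 difference of 0.48 ± 0.17 (SE; adjusted p = 0.0641 by edgeR). It did not pass in the main fit, but did in 5 of 25 alternative fits. Among these were omission of high strength replicate 3 or low strength replicate 1 of that period (edgeR adjusted p = 0.00399 and 0.0299) and total-count scaling (0.0422). The fits named called 9234, 3605 and 3279 of all 16110 genes.

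ENSGALG00000006572, lower at high strength at initiation, was lower again at termination. It measured 8.38, 13.05 and 12.7 CPM with high and 18.4, 18.5 and 17.4 CPM with low strength, without overlap, with a log2 difference of −0.94 ± 0.28 (SE; adjusted p = 0.0387 by edgeR). The call was lost without each of 7 libraries, at edgeR adjusted p between 0.05003 and 0.178, and with total-count scaling (0.0618). In growth, with 7.12, 6.42 and 4.36 CPM with high and 4.16, 5.99 and 5.26 CPM with low strength, the groups overlapped. Averaged over the periods it was the single member called by edgeR, 1 of 60 beside 1.61% of all genes (0.962% lower), with a log2 difference of −0.73 ± 0.16 (SE; adjusted p = 0.0360 by edgeR). That averaged call was lost without each of 13 libraries, at edgeR adjusted p between 0.0513 and 0.0873. The test of a change of its difference with the period fell just short of the threshold (edgeR F test, adjusted p = 0.0514). ENSGALG00000019276 and ENSGALG00000014678 had averaged log2 differences of 0.71 and 0.48 (edgeR adjusted p = 0.0798 and 0.0932), and ENSGALG00000027874 one of −0.60 (0.138).

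**Figure D5:**
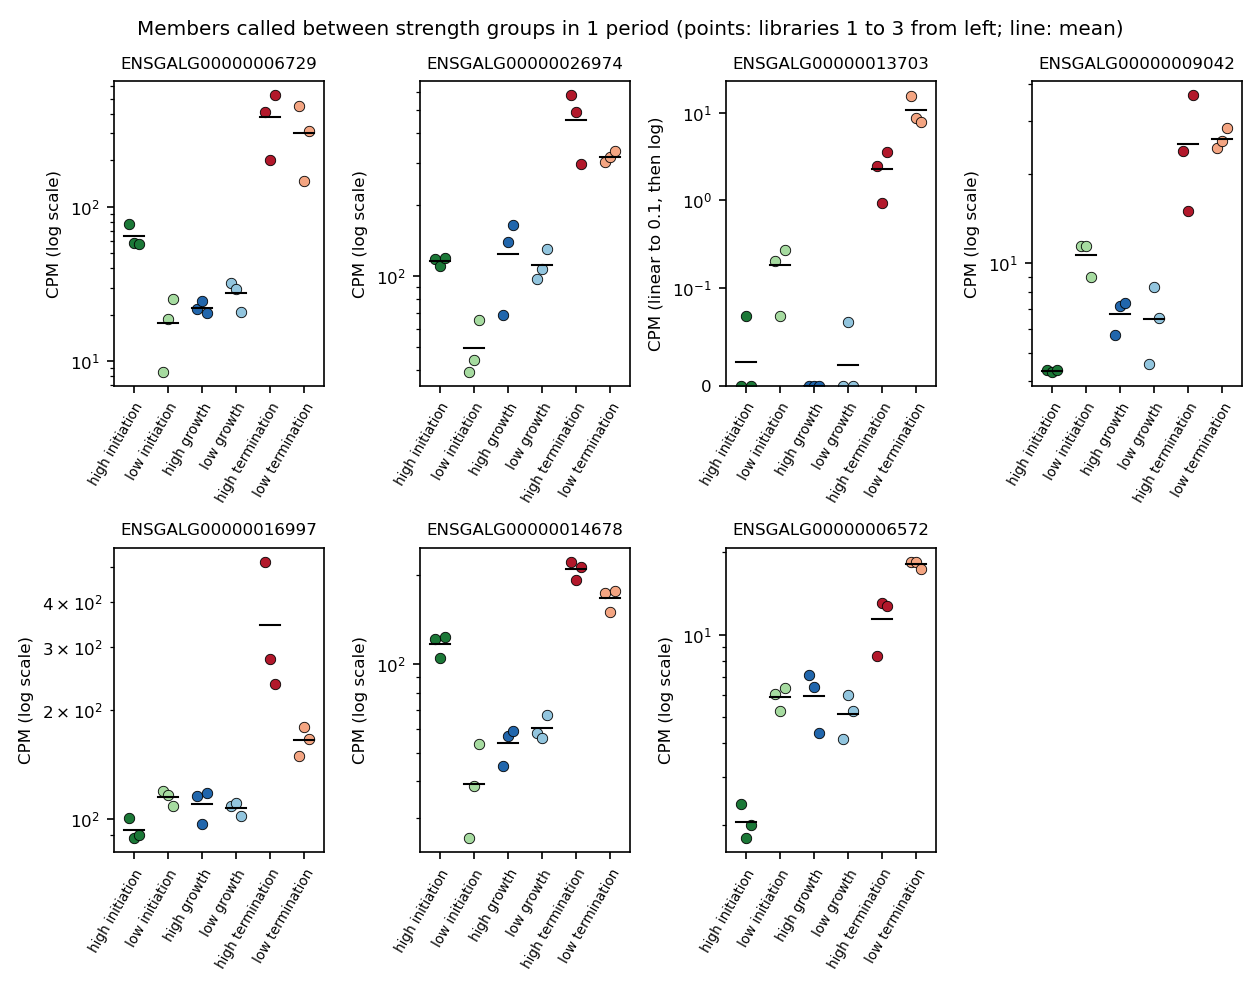
CPM in the 6 groups for the 7 members called between strength groups in at least 1 period, with a point for each library and a line at the mean of 3, on a log axis (linear below 0.1 CPM for ENSGALG00000013703). High and low initiation points lie apart for ENSGALG00000006729, ENSGALG00000026974, ENSGALG00000009042, ENSGALG00000014678, ENSGALG00000006572 and, uncalled, ENSGALG00000016997, and high and low termination points for ENSGALG00000013703, ENSGALG00000016997, ENSGALG00000014678 and ENSGALG00000006572.

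The number of calls at termination changed with the libraries included. Without high strength termination replicate 3, 25 members were called, 6 higher and 19 lower at high strength, beside 57.3% of all genes. None was called without high strength replicate 1 or 2 or low strength replicate 2 or 3 of that period, or in a fit to the 6 termination libraries alone. Of all 16110 genes these fits called 2, 15, 2, 2 and 0, against 2280 in the main fit, so the loss was not particular to the members. One was called without high strength initiation replicate 3, low strength initiation replicate 2 or low strength growth replicate 3, beside 1469, 1567 and 1690 of all genes. With scaling to total counts 5 members were higher and 1 lower, beside 20.4% of all genes. That scaling moved the median log2 difference of all genes to 0.26 and that of the members from −0.09 to 0.15. Members with a positive difference went from 24 to 34 of 60, while the share of all genes went from 49.7% to 62.7%.

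Whether the step into termination differed in size between the strength groups was tested as the difference between groups of termination minus the mean of initiation and growth. No member passed edgeR's quasi-likelihood test, beside 10.6% of all genes, and 9 members had an unadjusted p below 0.05, beside 33.2% of all genes. The strength difference at termination, which the rule limits, is part of this contrast, so these shares cannot show whether the step was shared. The same limit touches the averages over periods and the change with the period, which include termination. DESeq2 called 2 members, beside 20.9% of all genes, and limma-voom with library weights 32, beside 69.1%. With a larger step at high strength, ENSGALG00000016997 had a log2 difference of 0.84 ± 0.28 (SE; adjusted p = 0.0600 by edgeR) and ENSGALG00000026790 a log2 difference of 0.53 ± 0.19 (SE; adjusted p = 0.0734 by edgeR). ENSGALG00000026790 measured 133, 87.5 and 87.7 CPM with high and 73.5, 50.2 and 65.9 CPM with low strength at termination, without overlap. With a smaller step, ENSGALG00000001612 had a log2 difference of −0.66 ± 0.25 (SE; adjusted p = 0.0940 by edgeR) and ENSGALG00000012464 a log2 difference of −1.11 ± 0.45 (SE; adjusted p = 0.105 by edgeR). ENSGALG00000012464 measured 29.6, 32.6 and 28.1 CPM with high and 12.8, 15.9 and 21.4 CPM with low strength at initiation and 86.2, 63.1 and 97.97 CPM with high and 89.2, 75.5 and 116 CPM with low strength at termination, apart at initiation with high strength above and overlapping at termination. Without high strength termination replicate 3, 20 members were called, beside 53.5% of all genes. Without low strength initiation replicate 3 or low strength termination replicate 1, 1 was called, beside 2719 and 2970 of all 16110 genes.

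Counts of members called also moved with the tool and the scaling. DESeq2 called 7 members at termination, 4 averaged over periods and 4 for the change with the period, beside 24%, 6.21% and 20.9% of all genes. Limma-voom with library weights called 31 members at initiation, 36 at termination, 31 averaged over periods and 40 for the change with the period, beside 61.5%, 69.9%, 53.4% and 80.5% of all genes. Total-count scaling called 3 members averaged over periods, 2 for the step into termination and 3 for the change with the period, beside 1.24%, 15% and 7.05%. Leaving out high strength termination replicate 3 gave 11 members averaged over periods and 19 for the change with the period, beside 30% and 52.9%.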

How the data were processed

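RNA of 18 uterus samples was made into libraries with an Illumina TruSeq kit, per the labels' protocols. Deposited are gene counts and, per library, counts of clean reads and percent values of read quality and GC, of which those of mate 1 were used. Bowtie2, TopHat, TopHat2 and galGal4 appear in the submitters' processing notes. For the counter, strand setting and annotation release nothing is given in the sources used here, so overlapping, antisense and near-identical genes cannot be separated with certainty. The deposited gene values are described as normalized but are whole numbers with unequal totals, and were treated as counts.

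The labels do not tie libraries to separate hens, so the spread behind each p-value may be partly technical. Within groups, libraries differed beyond counting noise (chi-square per degree of freedom of at least 8.60). At these depths 3 counts equal 0.186 to 0.225 CPM.

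The members and lists were chosen with earlier results of these data known. The 16110 genes that exceeded 1 CPM in 3 or more libraries were fitted with edgeR 4.0.16 (R 4.3.3) using TMM factors, a mean per group over 18 libraries and the quasi-likelihood test. Adjustment (Benjamini-Hochberg) ran over all genes, with 0.05 as the limit. The standard error is the log2 difference over the square root of F. Alternatives were DESeq2 1.42.0, limma-voom (limma 3.58.1) with library weights, no filter, total-count and upper-quartile scaling, a replicate block, single periods and omission of each library. Named are the 6 highest scores, ranks 60 and 61, the most and least abundant members, and per strength comparison the 2 of smallest p in each direction. Gene lists by symbol could not be matched to identifiers and were not tested.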

Additional observations from a re-analysis of the deposited data

Results flagged for a closer look

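The strength difference of ENSGALG00000014678 changed with the period (edgeR F test of the interaction, adjusted p = 0.0128). At initiation the gene was 1.61 log2 units higher at high strength, in 3 of 3 libraries, with 117 ± 10.2 CPM against 39.2 ± 13.9 CPM (SD, n = 3). In growth the means were 53.8 ± 7.52 CPM and 60.6 ± 5.82 CPM, and at termination 209 ± 15.4 CPM and 167 ± 14.7 CPM. With TMM scaling, which the test used, the termination libraries overlapped, at 222, 192 and 259 CPM with high and 193, 222 and 234 CPM with low strength. The interaction did not pass without low strength initiation replicate 2 (edgeR F test, adjusted p = 0.0552). Groups of 3 libraries were not searched for single outlying values.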

How the results depend on the processing

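Of 590 refits of 24 named member and comparison pairs, 490 kept the side of the threshold and any direction, 61 lost a call, 39 gained one and 0 changed sign. The F tests of strength by period have no direction. The total includes pairs not called in the main fit, which had no call to lose. ENSGALG00000014678 and ENSGALG00000006572 kept their calls at initiation in all 25 alternatives each, at adjusted p of 1.74e-09 to 0.0169 and 8.64e-06 to 0.0385. The counts of members called were less stable, and the cause was not tested. At initiation the count of 5 became 31 with limma-voom with library weights and 8 in a fit to the 6 initiation libraries, and ranged from 2 to 8 on leaving out each library. The fit to the 6 initiation libraries called 2141 of all 16110 genes. At termination the count of 3 became 7 with DESeq2, 36 with limma-voom, 6 with total-count scaling and 0 in a fit to the 6 termination libraries, and 0 to 25 on leaving out each library. Averaged over periods the count of 1 became 4 with DESeq2, 31 with limma-voom, 3 with total-count scaling and 0 to 11 on leaving out each library. For the termination rise the count of 0 became 2 with DESeq2, 32 with limma-voom, 2 with total-count scaling and 0 to 20 on leaving out each library. For strength by period the count of 1 became 4 with DESeq2, 40 with limma-voom, 3 with total-count scaling and 0 to 19 on leaving out each library (19 without high termination replicate 3, 0 without low initiation replicate 2, 3 without low initiation replicate 3, 2 without high growth replicate 3 or low termination replicate 1). In growth every alternative called 0 members. Calls over all 16110 genes moved as well. Leaving out each library gave 552 to 2491 at initiation, 2 to 9234 at termination and 97 to 4840 averaged over periods. It gave 25 to 8624 for the termination rise and 234 to 8526 for strength by period.

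The data did not show that the replicate numbers pair the libraries. Of 45 same-numbered pairs, 11 had deviations correlated above 0.1, with a median of 0.01 and a range of −0.43 to 0.74. Of 18 libraries, 8 correlated best with their own number. Such correlations cannot exclude pairing, and the labels do not state it. With the replicate block 6 members were called at initiation, 0 in growth, 2 at termination, 0 averaged over periods, 0 for the termination rise and 1 for strength by period. Of all 16110 genes the block called 1262, 0, 2023, 201, 843 and 577 in the same order. At termination the block lost ENSGALG00000016997 (edgeR adjusted p = 0.0602) and ENSGALG00000006572 (0.0502) and gained ENSGALG00000023757 (0.0444), and averaged over periods it lost ENSGALG00000006572 (0.0616).

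Of the 60 members, 56 and 58 stayed among the highest scores with 0.1 or 5 CPM added, 48 with TMM-scaled CPM, 46 with no limit on growth, 60 with no limit on the median, and 49 to 59 on leaving out each library, the lowest without high termination replicate 2. The median ratio of termination to the other 12 libraries moved from 3.57 to 4.59 with TMM scaling. Below about 0.2 CPM, levels rest on fewer than 3 counts.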

Other observations

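Loci numbered by the authors and lacking an Ensembl identifier were not eligible for the list, but some had the same pattern. Of 3078 such loci that met both limits of the rule, 27 scored above the gene ranked 60, and 4 scored above 1. Novel02624 scored 3.52, more than the highest member, ENSGALG00000023757, at 2.71. At initiation it measured 4.95, 1.43 and 3.21 CPM with high and 3.12, 4.55 and 3.79 CPM with low strength, and in growth 1.60, 1.82 and 2.86 CPM with high and 1.80, 1.37 and 1.69 CPM with low strength. At termination it measured 155, 67.4 and 202 CPM with high and 140.2, 151 and 131 CPM with low strength, with high strength replicate 2 again the lowest. The locus is named after its values were seen.

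The limit on growth removed 16 Ensembl genes that scored above the gene ranked 60, and the limit on the median removed 0.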
